A study of Danio rerio with 6 samples.

Results

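All genes annotated on the mitochondrial chromosome (MT) were examined in RNA from whole zebrafish (Danio rerio) embryos. They were taken by chromosome name alone, with no use of their counts. Of the 31484 genes in the deposited tables, 35 lay on MT, of which 13 were protein-coding (165 to 1821 nt) and 22 were tRNA genes (68 to 77 nt). The ribosomal RNA genes of the mitochondrion were not analysed here. Embryos of genotype synpo2 -/- (3 libraries, below called mutant) were compared with embryos of genotype synpo2 wt/wt (3 libraries, wild type), all at 22 hours post fertilization. synpo2 encodes synaptopodin-2, which binds actin filaments at the Z-discs of muscle. The series describes the 3 replicates of each genotype as biological, and the labels do not say what the mutation is, which synpo2 paralogue it hits, or how many embryos were pooled.

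The vertebrate mitochondrial genome is a small circular molecule whose strands are each transcribed as long polycistronic RNAs. Most genes are read from one strand, and the tRNAs that punctuate the transcript are cut out to release the mRNAs between them. The mRNAs encode core subunits of respiratory chain complexes I (ND genes), III (CYB) and IV (CO genes) and of the ATP synthase, complex V (ATP genes). All other subunits, and the polymerase, ribosomal proteins and RNA-processing factors that the mitochondrion needs, are encoded in the nucleus. In the zebrafish embryo, mitochondria are laid down in the egg and are abundant in muscle and in the yolk syncytial layer.

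In the tables, 12 protein-coding genes and 14 tRNA genes lay on the plus strand, and MT-ND6 and 8 tRNA genes on the minus strand. Genes were tightly packed, and 10 pairs of neighbours overlapped, by 1 to 7 nt. The longest overlaps, of 7 nt each, were between mt-atp8 and MT-ATP6 and between mt-nd4l and MT-ND4. No source used here states how strand was treated in counting, so reads from opposite strands of the same interval cannot be told apart. Positions below are those of the deposited tables (GRCz10, chromosome MT).

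Library totals ranged from 32714170 to 142789686 counts, and wild type replicate 1 was 4.26 times as deep as the mean of the other 5. synpo2b, the synpo2 copy named in the tables, was at 1.71, 1.58 and 1.52 CPM (counts per 1000000, with library sizes scaled by edgeR's TMM) in mutant replicates 1 to 3, against 3.96, 3.91 and 6.09 CPM in wild type replicates 1 to 3. Its log2 fold change was -1.53 (SE 0.27), with an adjusted p of 0.15 by edgeR and 0.000114 by DESeq2. Of the 20415 genes tested over the whole table, edgeR's quasi-likelihood test called 15 at an adjusted p under 0.05, or 0.0735%, with 3 higher in mutants (0.0147%) and 12 lower (0.0588%). All 41 matched markers of 8 tissues (fast and slow muscle, heart, yolk syncytial layer, blood, neurons, epidermis and dividing cells) were detected, and the embryo as a whole was sampled, so levels are means over all its tissues.

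The part of the RNA that came from mitochondrial genes overlapped between the genotypes. Their share of all counts was 1.59%, 2.31% and 2.80% in mutant replicates 1 to 3, and 2.55%, 1.47% and 1.94% in wild type replicates 1 to 3. The mean was 2.23% ± 0.61 in mutants and 1.99% ± 0.541 in wild type (SD, n = 3 each), and the ranges overlapped. Within a genotype the highest share was 1.76 times the lowest in mutants and 1.73 times the lowest in wild type. The difference of the means, 0.245 percentage points, was smaller than either SD. In whole-embryo RNA, a difference in the number of mitochondria-rich cells and one in mitochondrial RNA per cell cannot be told apart. Single libraries decided its size and sign. It was -0.0399 percentage points without mutant replicate 3 and -0.0124 without wild type replicate 2, against 0.567 without mutant replicate 1 and 0.527 without wild type replicate 1.

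**Figure D1:**
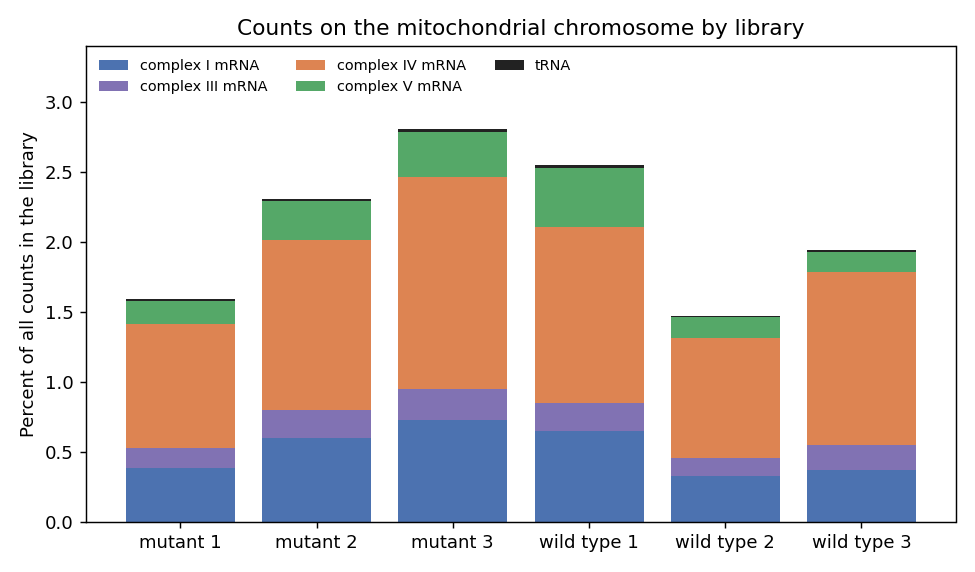
Percent of all counts in each library that fell on mitochondrial genes, stacked by respiratory chain complex of the mRNA and with tRNA on top. The 3 mutant libraries are at 1.59% to 2.80% and the 3 wild-type libraries at 1.47% to 2.55%, and complex IV mRNAs are the largest layer in all 6.

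Almost all of these counts came from mRNAs. Protein-coding genes held 99.3% ± 0.0357 of the mitochondrial counts in mutants and 99.3% ± 0.0951 in wild type, and tRNA genes held 0.703% ± 0.0357 in mutants and 0.744% ± 0.0951 in wild type. MT-CO1, the catalytic core of cytochrome c oxidase, ranked between 3 and 6 among all 31484 genes by count in each of the 6 libraries. It averaged 6387 ± 1608 CPM in mutants and 6328 ± 1363 CPM in wild type. This level lies beside those of the most abundant nuclear genes, the elongation factor gene eef1a1l1 (15715 CPM over all libraries), the keratin gene krt4 (11045 CPM), eef2b (6766 CPM), the ribosomal gene RPLP0 (6195 CPM) and hmga1a (5832 CPM).

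Levels of different genes were compared per length, as CPM per kilobase of gene. The 3 complex IV genes and MT-ATP6 were the most abundant. MT-CO1 was at 4118 ± 1037 in mutants and 4080 ± 879 CPM per kilobase in wild type, and MT-CO2 at 4062 ± 1093 in mutants and 3964 ± 1618 in wild type. MT-CO3 was at 3557 ± 1080 in mutants and 3039 ± 1227 in wild type, and MT-ATP6 at 3183 ± 1045 in mutants and 3274 ± 2657 in wild type. Next came mt-atp8, which shares its transcript with MT-ATP6, at 1991 ± 543 in mutants and 1703 ± 1035 in wild type. MT-CYB, the cytochrome b of complex III, was at 1642 ± 356 in mutants and 1534 ± 486 in wild type, and MT-ND1 at 1606 ± 479 in mutants and 1295 ± 662 in wild type.

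The remaining complex I genes were the lowest. MT-ND6, the only protein-coding gene on the minus strand, was at 908.3 ± 311 CPM per kilobase in mutants and 986.1 ± 698 in wild type. MT-ND2, MT-ND4, MT-ND3 and mt-nd4l followed with means of 439.8 to 971.1. MT-ND5, the longest gene, was last at 538.6 ± 127 in mutants and 385.7 ± 124 in wild type. Neighbours in this order were not separated by their ranges over the 6 libraries, for any of the 12 neighbouring pairs. Within a library the order was steadier. MT-CO2 was above MT-CO3, MT-ATP6 above mt-atp8, MT-ND1 above MT-ND6 and MT-ND4 above MT-ND3 in 6 of 6 libraries, while MT-CO1 was above MT-CO2 in 4 of 6 and MT-ND3 above mt-nd4l in 2 of 6.

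**Figure D2:**
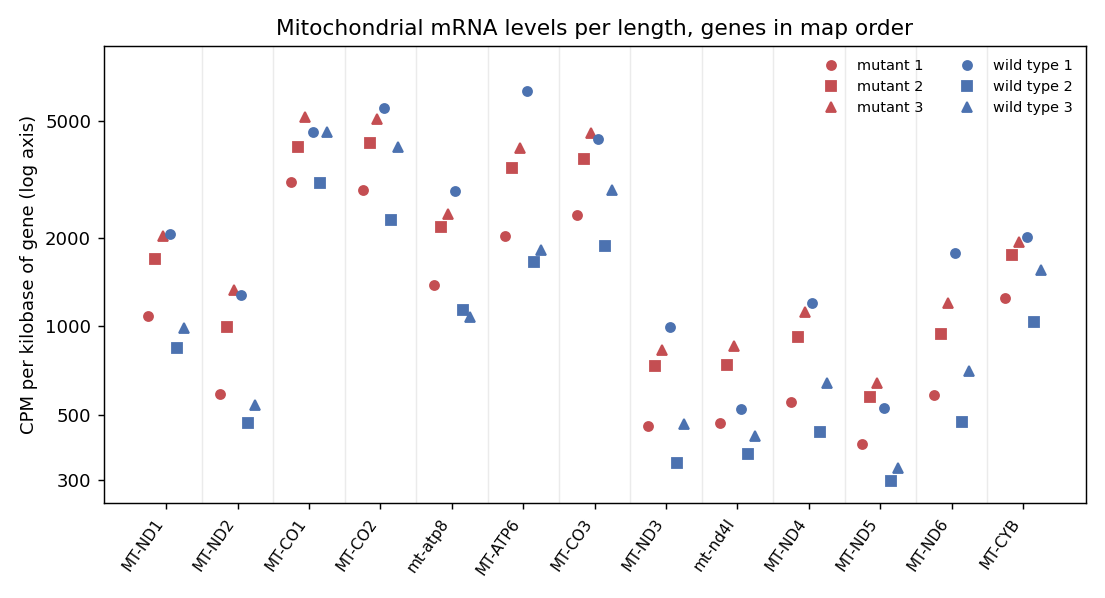
CPM per kilobase of gene (log axis) for the 13 mitochondrial protein-coding genes in map order, with 1 point per library, mutants in red and left of wild type in blue. Genes for complex IV and MT-ATP6 sit highest, MT-ND3, mt-nd4l and MT-ND5 sit lowest, and for each gene the red and blue points overlap.

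None of the 13 mRNAs was called between the genotypes. By edgeR 0 of 13 passed an adjusted p of 0.05, against 0.0735% of all genes tested, and DESeq2 and limma-voom also called 0. At an unadjusted p under 0.05, edgeR had 1 of the 13, mt-nd4l, against 11.2% of all genes tested. Of the 13 log2 fold changes, 11 were above 0, against 50.9% of all genes tested. They ran from -0.12 to 0.65 with a median of 0.19, against a median of 0.01 over all genes tested. The size and sign of this median rested on single libraries. Leaving out wild type replicate 1 gave 0.74, leaving out wild type replicate 2 gave -0.06, and leaving out mutant replicate 3 gave -0.01. For all 13 genes the CPM ranges of the genotypes overlapped, where ranges stood apart for 18.1% of all genes tested. The 13 mRNAs come from long shared transcripts in the same libraries, so they are not independent observations.

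Among the complex I subunits, mt-nd4l, which encodes a small membrane subunit (297 nt, positions 11009 to 11305), had the largest fold change of the mRNAs. It was at 139.3, 218.9 and 255.1 CPM in mutant replicates 1 to 3, and at 156.1, 109.5 and 126.2 CPM in wild type replicates 1 to 3. Mutant replicate 1 lay inside the wild-type range and the other mutant libraries above it. Its log2 fold change was 0.65 (SE 0.24, adjusted p = 0.393 by edgeR).

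MT-ND5, a proton-pumping subunit, was at 722.5, 1050 and 1171 CPM in mutants, and at 959.9, 543.9 and 603.2 CPM in wild type. Wild type replicate 1 lay between mutant replicates 1 and 2, and the log2 fold change was 0.48 (SE 0.27, adjusted p = 0.541). MT-ND1 was at 1061, 1653 and 1983 CPM in mutants and at 2004, 821.6 and 963.8 CPM in wild type. MT-ND2 was at 618.5, 1040 and 1392 CPM in mutants and at 1341, 492.3 and 567.7 CPM in wild type, and MT-ND4 at 766.1, 1276 and 1544 CPM in mutants and at 1660, 605.3 and 884.7 CPM in wild type. In all 3 genes wild type replicate 1 was near or above the highest mutant library and wild type replicate 2 was the lowest of the 6. These membrane subunits and MT-ND3 had log2 fold changes, in the order MT-ND1, MT-ND2, MT-ND3 and MT-ND4, of 0.31, 0.35, 0.16 and 0.19, each with an SE of 0.38 to 0.44. These values depended on single libraries. MT-ND1 was at 0.11 and MT-ND2 at 0.053 without mutant replicate 3, against 0.81 and 0.94 without wild type replicate 1, and MT-ND5 was at 0.34 and 0.77 under the same omissions. MT-ND6 was at 302.5, 487.9 and 623.9 CPM in mutants and at 924.2, 246.3 and 364.9 CPM in wild type, where replicate 1 was the highest and replicate 2 the lowest of all 6 (log2 fold change -0.12, SE 0.50).

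In complexes III and IV the log2 fold changes were smaller than their SEs. MT-CYB was at 0.10 (SE 0.28), MT-CO1 at 0.01 (SE 0.26), MT-CO2 at 0.04 (SE 0.35) and MT-CO3 at 0.23 (SE 0.35), which was 0.0021 without wild type replicate 2 and 0.57 without wild type replicate 1. MT-CO1 was at 4814, 6318 and 8028 CPM in mutants and 7114, 4754 and 7116 CPM in wild type. The lowest and the highest of the 6 values were therefore wild type replicate 2 and mutant replicate 3. MT-CO2, which takes up electrons from cytochrome c, was at 2010, 2899 and 3511 CPM in mutants and at 3817, 1585 and 2815 CPM in wild type. MT-CO3, a structural core subunit, was at 1889, 2927 and 3571 CPM in mutants and at 3399, 1479 and 2286 CPM in wild type. MT-CYB was at 1422, 1992 and 2208 CPM in mutants and at 2292, 1184 and 1773 CPM in wild type. For these 3 genes as well, wild type replicate 2 was the lowest library. In complex V, mt-atp8 was at 0.22 (SE 0.41) and MT-ATP6, the proton channel subunit, at -0.04 (SE 0.55). MT-ATP6 had the widest spread in wild type, with 1384, 2372 and 2774 CPM in mutants against 4338, 1133 and 1249 CPM in wild type replicates 1 to 3.

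Since the total on MT varied between libraries, each mRNA was also expressed as its share of the mitochondrial mRNA counts of the same library. The 3 mutant libraries were alike in this makeup, while wild type replicates 1 and 3 lay on opposite sides of them for several genes. MT-CO1 held 31.0%, 27.6% and 28.9% of the mRNA counts in mutants, and 24.7%, 35.8% and 37.3% in wild type replicates 1 to 3. MT-ATP6 held 8.92%, 10.4% and 9.997% in mutants, and 15.0%, 8.54% and 6.54% in wild type. The highest wild-type share of MT-ATP6 was 2.3 times the lowest, against 1.16 times in mutants. Complex IV genes together held 54.6% ± 1.51 in mutants and 57.6% ± 7.25 in wild type, and complex I genes held 25.5% ± 1.08 in mutants and 22.4% ± 3.2 in wild type.

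For 3 of the 13 mRNAs the shares stood apart between the genotypes, all higher in mutants. mt-nd4l held 0.897%, 0.958% and 0.919% in mutants, and 0.541%, 0.826% and 0.661% in wild type. MT-ND5 held 4.66%, 4.59% and 4.22% in mutants, and 3.33%, 4.10% and 3.16% in wild type. MT-CO3 held 12.2%, 12.8% and 12.9% in mutants, and 11.8%, 11.2% and 11.98% in wild type. Of all genes tested, 0.877% stood apart and higher in mutants after scaling to the mitochondrial mRNA counts, and 6.63% stood apart and lower. The summed mRNA CPM used as the scale varied 2.17-fold over the 6 libraries, which nuclear genes do not share, so this is not a like background. These shares were computed after other results were seen and carry no test.

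**Figure D3:**
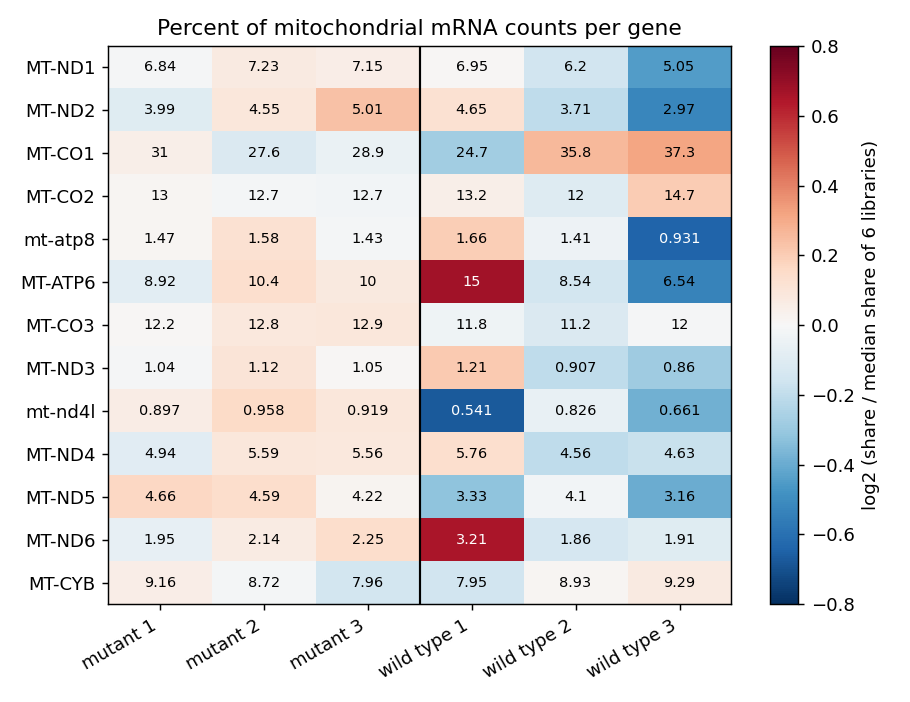
Percent of the mitochondrial mRNA counts of a library held by each of the 13 genes (number in each cell), mutants left of the line and wild type right of it, coloured by log2 of the share over the gene's median of 6 libraries. Wild type replicate 1 is high for MT-ATP6 (15.0%) and MT-ND6 (3.21%) and low for mt-nd4l (0.541%), wild type replicate 3 is high for MT-CO1 (37.3%), and the 3 mutant columns are pale.

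Genes that share or adjoin one transcript were compared by the ratio of their levels per length. mt-atp8 over MT-ATP6 was 0.681, 0.629 and 0.595 in mutants and 0.457, 0.684 and 0.59 in wild type. mt-nd4l over MT-ND4, its bicistronic partner, was 0.845, 0.797 and 0.768 in mutants, and 0.437, 0.841 and 0.664 in wild type. In both pairs wild type replicate 1 was the lowest, and the genotypes overlapped. MT-ND6 over MT-ND5, which lie on opposite strands and meet at their 3′ ends, was 1.47, 1.63 and 1.87 in mutants and 3.38, 1.59 and 2.12 in wild type, again with wild type replicate 1 set apart. How reads in the overlapping bases were counted is not stated in the labels. Of the ratios of MT-CO1 to the 3 genes with higher mutant shares, 2 stood apart. MT-CO1 over mt-nd4l was 6.62, 5.53 and 6.03 in mutants and 8.73, 8.31 and 10.8 in wild type, and MT-CO1 over MT-ND5 was 7.82, 7.07 and 8.05 in mutants and 8.70, 10.3 and 13.85 in wild type. MT-CO1 over MT-CO3 overlapped, at 1.29, 1.09 and 1.14 in mutants and 1.06, 1.63 and 1.58 in wild type. These ratios were picked after their values were seen.

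The tRNA genes spanned a wide range of counts. 4 of the 22 held most of them. trnL1, a leucine tRNA next to MT-ND1, was at 34.5, 43.4 and 75.3 CPM in mutants and 84.0, 50.2 and 22.7 CPM in wild type. trnS1, a serine tRNA on the minus strand directly after MT-CO1, was at 14.1, 22.2 and 32.7 CPM in mutants and 50.7, 15.9 and 31.7 CPM in wild type. trnC (cysteine) averaged 23.1 ± 3.6 CPM in mutants and 26.0 ± 14.6 CPM in wild type, and trnN (asparagine) averaged 18.5 ± 3.51 CPM in mutants and 20.44 ± 10.01 CPM in wild type. The genotypes overlapped for all 4.

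The other 18 tRNA genes averaged between 0.0707 CPM (trnW in wild type) and 6.11 CPM (trnI in mutants). The lowest of them rested on few counts. trnP (proline) had 9, 15 and 2 counts in mutants and 20, 4 and 5 in wild type, and was the 1 mitochondrial gene that did not pass the filter on low counts. The counts do not tell mature tRNA from unprocessed precursor RNA. The labels do not say how RNA was selected for the libraries.

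**Figure D4:**
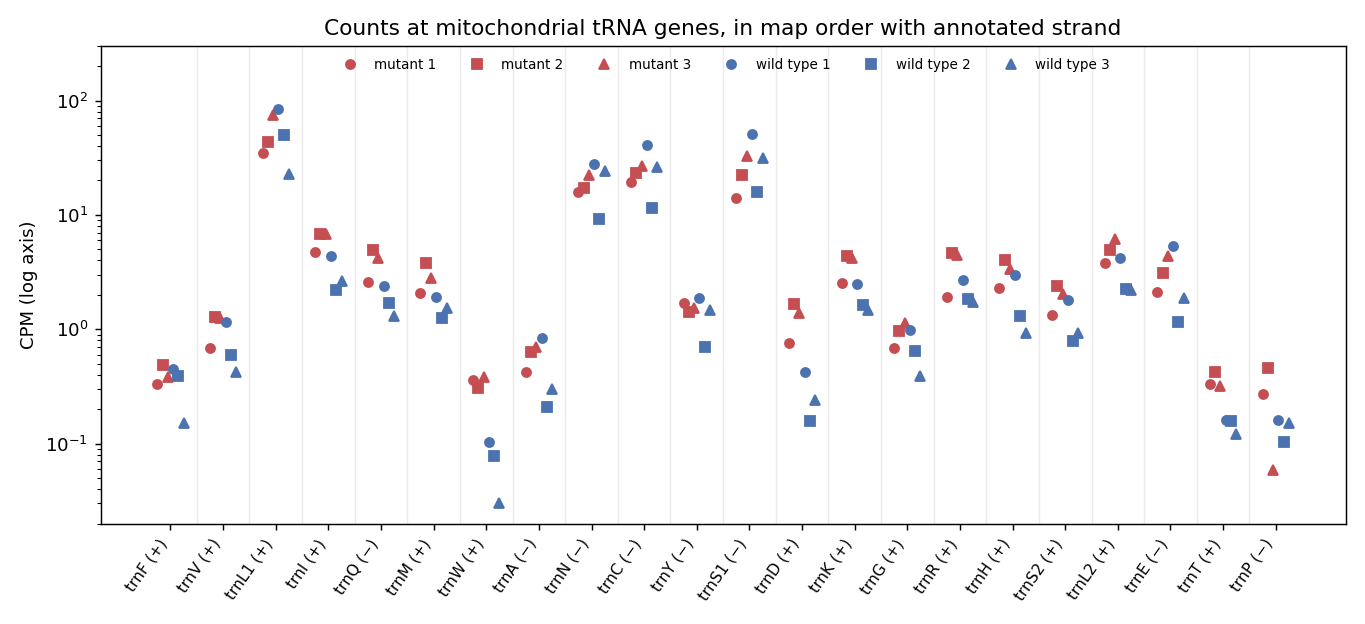
CPM (log axis) at the 22 mitochondrial tRNA genes in map order, with the annotated strand in brackets and 1 point per library, mutants in red and left of wild type in blue. trnL1, trnN, trnC and trnS1 lie above the rest, and red points lie above all blue points for trnI, trnQ, trnM, trnW, trnD, trnK and trnT. Of these, trnW and trnT passed the filter through the mutant libraries alone.

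Many of the low tRNA genes had a higher CPM in mutants, but none passed edgeR's test over all genes. Of 21 tested tRNA genes, 0 were called by edgeR and by limma-voom, and DESeq2 called 1 (trnD), against 2.2% of all genes by DESeq2 (0.705% higher in mutants) and 0.0833% by limma-voom. At an unadjusted p under 0.05 edgeR had 7 of 21, all higher in mutants, against 4.39% of all genes tested in that direction. CPM ranges stood apart for the same 7, against 8.45% of all genes in that direction, and for 0 in the other, against 9.63% of all genes. Without trnW and trnT, which passed the filter through the mutant libraries alone, the counts were 5 of 19. trnD, 1 of these 5, reached the filter's cutoff of 0.298 CPM in 3 mutant libraries but only 1 wild-type library. Its passing thus rested mainly on the mutant libraries, so the 5 are not free of the filter's effect. The tRNA genes are cut from long shared transcripts in the same 6 libraries, so they are not independent observations. The shares over all genes are therefore no test of these counts. The median log2 fold change of the 21 was 0.68, and 17 were above 0, against 50.9% of all genes tested. Without wild type replicate 1, 20 were above 0, and without wild type replicate 2, 15 were. With each library left out in turn the median stayed between 0.49 and 1.08.

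trnD, the aspartate tRNA between MT-CO1 and MT-CO2 (positions 8049 to 8117, plus strand), and trnW had fold changes well above the other tRNA genes. The counts of trnD were 25, 55 and 48 in mutants and 53, 6 and 8 in wild type, where replicate 1 was the deep library. In CPM this was 0.752, 1.67 and 1.40 in mutants against 0.423, 0.156 and 0.241 in wild type, and every mutant library lay above every wild-type library. The fitted log2 fold change was 2.13 (SE 0.48), with an adjusted p of 0.257 by edgeR and 0.0192 by DESeq2. With single libraries left out, the fitted value was 1.90 to 2.67 and the lowest edgeR adjusted p was 0.157.

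trnW, the tryptophan tRNA after MT-ND2 (positions 6038 to 6107, plus strand), had the larger ratio of mean CPM, 4.92 against 4.66 for trnD. It had 12, 10 and 13 counts in mutants and 13, 3 and 1 in wild type. Its CPM was 0.361, 0.304 and 0.379 in mutants against 0.104, 0.0782 and 0.0302 in wild type (log2 fold change 2.10, SE 0.46, adjusted p = 0.252). trnT (threonine, positions 16449 to 16520) had 11, 14 and 11 counts in mutants and 20, 6 and 4 in wild type (log2 fold change 1.26, SE 0.36, adjusted p = 0.322). Both passed the filter through the mutant libraries alone, since 0 wild-type libraries reached the cutoff of 0.298 CPM and all 3 mutant libraries did. With 0 wild-type libraries at the cutoff, they could pass only with all 3 mutant libraries at or above it. Their ranges standing apart is therefore fixed by the filter. trnD reached the cutoff in all 3 mutant libraries but only 1 wild-type library, so its passing also rested mainly on the mutant libraries.

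The other 4 genes with ranges apart had more counts. trnI (isoleucine) was at 4.75, 6.78 and 6.79 CPM in mutants against 4.34, 2.22 and 2.62 CPM in wild type (log2 fold change 0.99, SE 0.31, adjusted p = 0.343). Its neighbour trnQ (glutamine, minus strand) was at 2.59, 4.92 and 4.20 CPM in mutants against 2.38, 1.70 and 1.30 CPM in wild type (1.11, SE 0.35, adjusted p = 0.34). trnM (methionine), next in line before MT-ND2, was at 2.07, 3.80 and 2.80 CPM in mutants against 1.93, 1.25 and 1.54 CPM in wild type (0.87, SE 0.32, adjusted p = 0.393). trnK (lysine), between MT-CO2 and mt-atp8, was at 2.53, 4.38 and 4.20 CPM in mutants against 2.48, 1.64 and 1.48 CPM in wild type (0.97, SE 0.33, adjusted p = 0.366). In each of these 4, mutant replicate 1 lay just above wild type replicate 1, so the gap between the genotypes was small.

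Further plus-strand genes had higher means in mutants with overlapping ranges. trnL2, a second leucine tRNA before MT-ND5, was at 3.79, 4.89 and 6.12 CPM in mutants and 4.24, 2.27 and 2.20 CPM in wild type (log2 fold change 0.75, SE 0.34, adjusted p = 0.467). trnR (arginine) was at 1.92, 4.65 and 4.43 CPM in mutants and 2.69, 1.85 and 1.72 CPM in wild type (0.80, SE 0.39, adjusted p = 0.49). After MT-ND4, trnH (histidine) was at 0.86 (SE 0.46), and trnS2, another serine tRNA between trnH and trnL2, was at 0.68 (SE 0.41). Smaller values were seen for trnV (valine, 0.52, SE 0.46), trnG (glycine, 0.43, SE 0.41) and trnF (phenylalanine, 0.22, SE 0.46). On the minus strand, trnA (alanine), trnY (tyrosine) and trnE (glutamate) were at 0.29, 0.19 and 0.18, each with an SE of 0.39 to 0.57. None of these reached an unadjusted p under 0.05. Leaving out wild type replicate 1 gave higher values for most of them, 1.52 for trnH, 1.199 for trnA, 1.15 for trnS2, 1.14 for trnL2, 1.06 for trnV and 0.83 for trnG. The lowest value with any 1 library left out was 0.0015 for trnA (without wild type replicate 2), and 0.18 for trnG, 0.27 for trnV and 0.58 for trnH (each without wild type replicate 3).

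The tRNA genes of the 2 strands were also described apart. On the plus strand 13 of 14 had a log2 fold change above 0, against 50.9% of all genes tested. Their median was 0.83, and trnL1, the most abundant, was the exception at -0.04 (SE 0.48). The 14 include trnW and trnT, which passed the filter through the mutant libraries alone, and trnD, which reached its cutoff in only 1 wild-type library. The filter thus fixed a positive sign for trnW and trnT and favoured one for trnD. trnP, which did not pass, lay on the minus strand, with a mutant over wild type ratio of mean CPM of 1.89. On the minus strand 4 of 7 tested were above 0, with a median of 0.18 and a range from -0.51 (trnS1, SE 0.45, and -0.046 without wild type replicate 1) to 1.11 (trnQ). With single libraries left out the plus-strand median was 0.64 to 1.15 and the minus-strand median -0.16 to 0.52. The difference between the strands was not tested.

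**Figure D5:**
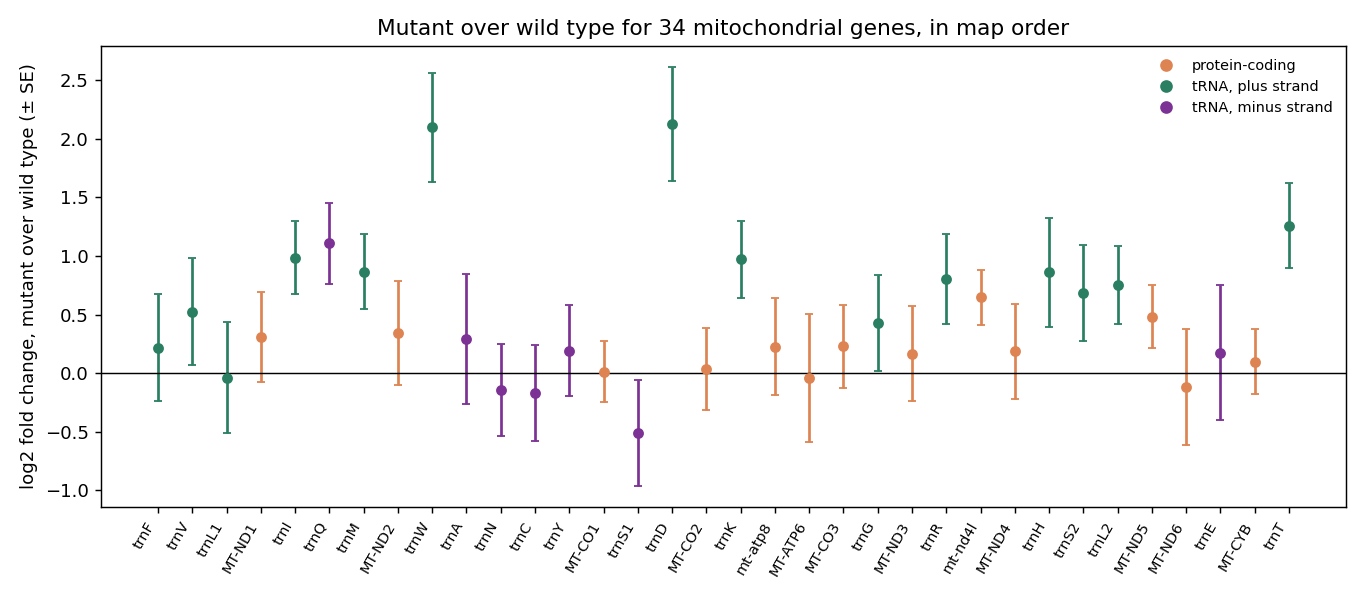
Fitted log2 fold change, mutant over wild type, with its SE for the 34 mitochondrial genes that passed the filter, in map order, coloured by class and strand. mRNAs (orange) lie between -0.12 and 0.65, trnW and trnD stand at 2.10 and 2.13, and the lowest value is -0.51 for trnS1.

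The tRNA counts were also set against the mitochondrial counts of the same library, which takes out the differing totals. Scaled to the mitochondrial mRNA counts, 9 of the 21 tested tRNA genes stood apart and higher in mutants (trnI, trnQ, trnM, trnW, trnD, trnK, trnH, trnS2 and trnL2) and 1 lower (trnS1). Over all genes tested this was 0.877% higher and 6.63% lower, but these share none of the scale and so are not a like background. The 9 include trnW, which passed the filter through the mutant libraries alone, and trnD, which reached its cutoff in only 1 wild-type library. Plus-strand tRNA genes other than trnL1 (left out after its level was seen) held 0.14%, 0.157% and 0.124% of all mitochondrial counts in mutants. In wild type they held 0.0816%, 0.0999% and 0.0665%, with every mutant library above every wild-type one. This separation rested on the scale and on leaving out trnL1. With trnL1 kept, the plus-strand shares overlapped, at 0.345% to 0.393% in mutants and 0.185% to 0.475% in wild type. The summed CPM without trnL1 also overlapped, at 21.9 in mutant replicate 1 against 23.7 in wild type replicate 1. Minus-strand tRNA genes held 0.362%, 0.317% and 0.332% in mutants and 0.447%, 0.302% and 0.452% in wild type, which overlapped. Per 100000 mitochondrial mRNA counts, trnD had 4.84, 7.32 and 5.04 counts in mutants and 1.47, 1.18 and 1.26 in wild type. trnS1 had 90.7, 97.2 and 117.9 in mutants and 176.0, 120.0 and 165.8 in wild type, and so was the 1 tRNA gene with all mutant libraries below all wild-type libraries on this scale. With counts scaled to the 13 mRNAs, the median log2 fold change of the tRNA genes was 0.60. These values are descriptions with no test.

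No nuclear gene that acts on the mitochondrial genome or its transcripts was called by edgeR. Of 179 tested genes in 7 lists, edgeR called 0, against 0.0735% of all genes tested. At an unadjusted p under 0.05 there were 15 (9 higher and 6 lower in mutants). That is 8.38% of the 179, against 11.2% of all genes tested, and 5.03% higher in mutants against 4.39%. The median log2 fold change was 0.05, and 58.7% of the 179 were above 0, against 50.9% of all genes tested. The same shares over all genes apply to each list below. DESeq2 called 3 of the 179, or 1.68%, against 2.2% of all genes tested, and limma-voom called 0. With both directions together, the share called is thus no larger than that over all genes. Of the 3 DESeq2 calls, 2 were higher in mutants, a direction that held 0.705% of all genes tested. CPM ranges stood apart and higher in mutants for 25 of the 179, against 8.45% of all genes tested. They stood apart and lower for 6, against 9.63%. These counts of ranges carry no test, and the genes named below are given for their values.

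In the list of transcription factors and terminators, 0 of 9 were called and 7 were above 0, against 50.9% of all genes tested. The polymerase gene POLRMT was at 23.4, 28.0 and 23.8 CPM in mutants and 16.34, 22.1 and 16.01 CPM in wild type. Its ranges stood apart, and its log2 fold change was 0.47 (SE 0.17, adjusted p = 0.393). TFB1M, a dimethyltransferase of mitochondrial ribosomal RNA, was at 2.71, 2.61 and 2.83 CPM in mutants and 4.16, 4.28 and 5.31 CPM in wild type (-0.75, SE 0.21, adjusted p = 0.319). TFAM, which packages mitochondrial DNA and starts transcription, was at -0.03 (SE 0.13) and its partner tfb2m at 0.18 (SE 0.14). The termination factor family genes MTERF4 and MTERF2 were at 0.22 and 0.29.

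In the list for DNA replication and the nucleoid, 0 of 19 were called by edgeR and 1 by DESeq2. SLC25A4, the ADP/ATP carrier gene of heart and skeletal muscle in mammals, was at 0.271, 0.213 and 0.816 CPM in mutants and 3.41, 1.30 and 3.62 CPM in wild type (log2 fold change -2.67, SE 0.62, adjusted p = 0.266 by edgeR and 0.00325 by DESeq2). The sums of muscle markers given below were also lower in mutants, and their part in this value was not tested. The mitochondrial topoisomerase gene top1mt was at 0.57 (SE 0.17), the inner membrane fusion gene OPA1 at -0.38 (SE 0.16) and RRM2B, a ribonucleotide reductase subunit, at 1.18 (SE 0.55), with adjusted p values of 0.331 to 0.481.

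RNA processing and decay genes had 0 of 34 called and a median of 0.05, with 21 above 0, against 50.9% of all genes tested. tbrg4, a FASTK family gene, was at 52.2, 61.4 and 58.3 CPM in mutants and 47.0, 43.9 and 40.6 CPM in wild type (0.39, SE 0.11, adjusted p = 0.322). QTRT1, TRMU and PTCD1, which act on tRNA, were at 0.33, 0.27 and 0.23. LRPPRC and SLIRP, whose complex stabilises mitochondrial mRNAs, were at -0.04 (SE 0.13) and 0.04 (SE 0.19). Among biogenesis regulators 0 of 17 were called, with the nuclear receptor gene ESRRG at -0.60 (SE 0.21), GABPA at 0.29 (SE 0.11), gabpb2a at 0.19 and NRF1 at 0.23.

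For translation, 0 of 73 mitochondrial ribosomal protein genes, 0 of 15 aminoacyl-tRNA synthetase genes and 0 of 15 translation factor genes were called by edgeR. The ribosomal protein genes had a median of 0.07, with MRPL1 (0.38), MRPL10 (0.31), MRPL13 (0.26) and MRPS35 (0.28) at the smallest p. SARS2, the mitochondrial seryl-tRNA synthetase gene, was at 10.6, 11.2 and 9.18 CPM in mutants and 6.66, 6.13 and 4.67 CPM in wild type (0.83, SE 0.20, adjusted p = 0.285 by edgeR and 0.0153 by DESeq2). RARS2 (arginine), EARS2 (glutamate) and vars2 (valine) were at -0.83, -0.49 and -0.20.

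The gene of this group with the widest gap was taco1, whose mammalian product activates translation of the CO1 mRNA. It was at 16.4, 18.1 and 18.1 CPM in mutants and at 2.80, 8.82 and 1.93 CPM in wild type, so that all mutant libraries were above all wild-type libraries. The log2 fold change was 1.96 (SE 0.53), with an adjusted p of 0.31 by edgeR, 0.0126 by DESeq2 and 0.0296 by edgeR without wild type replicate 2. That replicate was the wild-type library nearest to the mutants. taco1 was not called with any other single library left out, with the replicate block or by limma-voom. The level of MT-CO1 mRNA itself overlapped between the genotypes. The elongation factor genes TSFM and TUFM were at 0.25 and 0.11 and the initiation factor gene mtif3 at -0.20.

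Tissue markers moved between the libraries as well. The summed level of 9 fast muscle markers was 2201 to 3826 CPM in mutants and 4508 to 6854 CPM in wild type, and that of 4 slow muscle markers 531 to 734 CPM in mutants and 817.5 to 1038 CPM in wild type. Both sums were lower in every mutant library, as was the epidermal sum given below, while the mitochondrial share was not. Taken singly, 6 of 9 fast muscle, 2 of 4 slow muscle and 0 of 4 epidermal markers had ranges apart and lower in mutants. Over all genes tested this was 9.63%. Most of the slow muscle sum was smyhc1, at 512, 683 and 712 CPM in mutants and 850, 792 and 1015 CPM in wild type. Within the slow muscle list, smyhc2 went the other way, with a log2 fold change of 0.11 (SE 0.27). The sum of 7 yolk syncytial layer markers was 12634, 5312 and 1658 CPM in mutants and 2600, 4829 and 1982 CPM in wild type. Of these 7, 6 had a log2 fold change above 0. The other, apoea, was at -2.02 (SE 0.75, adjusted p = 0.398 by edgeR), with ranges apart and lower in mutants. Mutant replicate 1, with the highest yolk sum, had the lowest mitochondrial share of the mutants. Wild type replicate 2, with the highest yolk sum of the wild types, had the lowest share of all 6. Mutant replicate 3, with the lowest yolk sum of all 6, had the highest share of all 6 (2.80%). Some pairs of libraries went the other way. Mutant replicate 2 was above wild type replicates 2 and 3 in both yolk sum and share (2.31% against 1.47% and 1.94%). Wild type replicate 1 (2.55%) was also above wild type replicate 3 in both, and mutant replicate 1 above wild type replicate 2 in both. In every other pair of libraries the higher yolk sum went with the lower share. Blood markers (5 genes) summed to 522 to 632 CPM in mutants and 310 to 1359 CPM in wild type, heart markers (5 genes, 4 tested) to 87.6 to 123 CPM in mutants and 97.0 to 118 CPM in wild type, and neuronal markers (3 genes) to 181 to 299 CPM in mutants and 254 to 291 CPM in wild type. Epidermal markers (4 genes) summed to 12571 to 14827 CPM in mutants and 14885 to 18695 CPM in wild type, and dividing-cell markers (4 genes) to 2050 to 2423 CPM in mutants and 2410 to 2490 CPM in wild type. The part of these differences in the mitochondrial counts was not tested.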

How the data were processed

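Each library came as a table of the authors' deposited read counts, unnormalised and by Ensembl gene. The submitters' processing notes name the build GRCz10 and the tools Trimmomatic (0.36) and STAR (2.5.2b). No source used here states the counting program, its strand and multiple-mapping settings or the annotation release. Mitochondrial genes were those with MT in the chromosome column. Symbols came from the gene name table for 13 of them. The 22 tRNA genes were named from RefSeq entries (GRCz12tu) of identical start and end, which existed for 35 of 35 genes and named the same gene for 13 of 13 symbols. No sequence was available from a file and none is printed.

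Genes were filtered with filterByExpr (minimum count 10), which kept 20415 of 31484 and 34 of 35 mitochondrial genes. edgeR 4.0.16 (R 4.3.3) with TMM scaling and a robust, two-sided quasi-likelihood F test compared the genotypes without covariates, with Benjamini-Hochberg adjustment over all genes. CPM used TMM-adjusted library sizes. Values after ± are SDs of 3 libraries. Each SE was the log2 fold change over the square root of F. DESeq2 1.42.0 and limma 3.58.1 (voom) were alternatives. No pair of libraries agreed within sampling noise (chi-square per gene at least 31.5 over 15 pairs). Replicate numbers gave no sign of pairing (correlation of deviations -0.233, -0.0971 and 0.182 for equal numbers, and -0.309 to 0.366 for unequal ones). With 3 libraries per genotype this check cannot exclude it. Other alternatives were RLE, upper-quartile, total-count and nuclear-only scaling, no filter, a stricter filter (1 CPM in 3 libraries), a non-robust fit, the replicate block, each library left out, wild type replicate 1 thinned, and a threshold of 0.01. Scaling to mitochondrial mRNA was added after the data were seen. The code was tested on simulated counts of this comparison, with 200 changed among 20154 genes. The changed genes were drawn only from those with a mean of at least 1 CPM. The shares recovered therefore do not cover the 8 tRNA genes with a mean under 1 CPM, among them trnD, trnW and trnT. The share recovered was 28% of 2-fold, 88% of 4-fold, 92% of 8-fold and 100% of 16-fold changes, and 14 unchanged genes were called.

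Every mitochondrial mRNA was to be named, with the 4 tRNA genes of highest mean count and the 4 of smallest p. The other tRNA genes were added after their values were seen. Of each nuclear list, up to 4 members by smallest p and 5 fixed genes were named. Lists were matched to symbols without regard to case, also after dropping a final a or b. Members were set by chromosome name alone. This gene group and the lists were chosen with earlier results of these data known.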

Additional observations from a re-analysis of the deposited data

How the results depend on the processing

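The count of mitochondrial genes called was 0 under every edgeR and limma-voom alternative run and 1 with DESeq2. Over all genes the count of 15 became 450 with DESeq2, 44 with no filter, 8 with the stricter filter and 0 with the replicate block, and 0 to 16 with single libraries left out. With the replicate block the median of the mRNAs was 0.28 and that of the tRNA genes 0.75. Members of the nuclear lists called were 3 with DESeq2, 1 each in the lists for DNA replication, aminoacyl-tRNA synthetases and translation factors, and 0 to 1 with single libraries left out (translation factors 0 to 1). The tRNA share differed by -0.04 percentage points between the genotypes by counts and by -0.52 per kilobase. Some fold changes near 0 changed sign, and the cause was not tested. trnL1 was at 0.0181 with total-count scaling and 0.0488 with the replicate block. MT-ATP6 was at 0.0567 with total-count scaling, 0.30 by limma-voom and 0.25 with the replicate block, and MT-ND6 at 0.13 by limma-voom and 0.094 with the block. Scaled to mitochondrial mRNA, MT-CO1, MT-CO2 and MT-CYB were at -0.16, -0.0607 and -0.0184. With single libraries left out, log2 fold changes ran from -0.0817 to 0.53 (trnF), -0.43 to 0.49 (trnL1), -0.47 to 0.16 (trnN), -0.50 to 0.31 (trnC), -0.0857 to 0.52 (trnY), -0.16 to 1.08 (trnE), -0.18 to 0.20 (MT-CO1), -0.21 to 0.35 (MT-CO2), -0.018 to 0.85 (mt-atp8), -0.33 to 0.87 (MT-ATP6), -0.0891 to 0.74 (MT-ND3), -0.0625 to 0.68 (MT-ND4), -0.42 to 0.63 (MT-ND6) and -0.0915 to 0.34 (MT-CYB). Counts under 20 in every library limit trnW, and counts under 20 in every library but wild type replicate 1 limit trnT, trnP and trnF.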
